A study of Mus musculus with 2 samples.

Results

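The Mir322, Mir503 and Mir450 cluster is a run of 7 miRNA genes within 6353 nt on the minus strand of the mouse X chromosome. Its members, Mir322, Mir503, Mir351, Mir542, Mir450a-2, Mir450a-1 and Mir450b, were taken by gene symbol and make up 7 of the 1973 miRNA genes that each count table lists. GENCODE release M21 calls Mir450a-1 and Mir450a-2 by the names Mir450-1 and Mir450-2. The RNA, below 30 nt in size, came from the whole stomachs of newborn B6NCrl mice aged 0 days. There were 2 libraries, 1 from each of 2 pups born to 1 dam, and the labels name no treatment or altered allele and give the sex as not collected. Both libraries belong to 1 group, so the data give the level of each member and the spread between 2 littermates, and hold no contrast of conditions.

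The libraries held 4463355 and 3454655 reads counted on the strand of a miRNA gene, the unit of every level that follows (CPM, counts per 1000000 such reads). A count of 0 would allow up to 0.672 CPM in pup 1 and 0.868 CPM in pup 2. Genes with at least 10 counts in each library are called detected here, which 305 genes and all 7 members were. Markers of the labelled tissue were present. The smooth muscle genes Mir143 and Mir145a held 24.8% ± 1.21 (SD, n = 2) of the counts, the squamous forestomach genes Mir203, Mir205 and Mir31 11.4% ± 0.349, and the 4 genes of glandular epithelium 0.792% ± 0.0330. Reads that map to several places are not counted, so the share of a marker gene with an arm encoded elsewhere can be too low. In whole tissue, fewer cells of a type and less RNA per cell cannot be told apart.

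A miRNA gene gives a hairpin RNA from which the enzyme Dicer releases 2 arms, named 5p and 3p, and an arm loaded into an Argonaute protein silences mRNAs that pair with its seed, bases 2 to 8. Mir322, the mouse counterpart of human MIR424, and Mir503 belong to the extended miR-15 and miR-16 family, which restrains cell cycle genes, and they are known for promoting cell cycle exit during muscle differentiation. Mir351 carries the seed of the miR-125 family, while Mir542 and the Mir450 genes belong to neither family. The tables count reads per hairpin gene, so they do not tell which arm was read.

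The 5p arms of the cluster are printed first because their seeds decide which other miRNA genes the members resemble. They are RefSeq sequences on GRCm38.p6, 5′ to 3′, with the seed in capitals.
mmu-miR-322-5p: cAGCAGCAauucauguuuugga
mmu-miR-503-5p: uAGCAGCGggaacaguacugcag
mmu-miR-16-5p: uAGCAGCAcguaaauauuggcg
mmu-miR-351-5p: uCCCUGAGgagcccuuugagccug
mmu-miR-125a-5p: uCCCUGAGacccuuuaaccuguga
mmu-miR-125b-5p: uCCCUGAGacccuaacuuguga
mmu-miR-542-5p: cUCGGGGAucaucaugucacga
mmu-miR-450a-5p: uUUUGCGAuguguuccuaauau
mmu-miR-450b-5p: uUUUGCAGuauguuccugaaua

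Mir322 had the same seed as miR-16, and the arms were identical at 12 of 22 positions counted from the 5′ end. Mir503 differed from Mir322 in the seed by the single substitution A8G (the base of Mir322 first), so that bases 2 to 7 were shared. Mir351 matched miR-125a over its first 8 bases and at 10 of 24 positions in all. Of 1679 mature miRNAs in the RefSeq table, 10 had the seed of miR-322-5p and 5 that of miR-351-5p. The seed of miR-503-5p was found in no other, which was also so for those of miR-450a-5p and miR-450b-5p. The seed of miR-542-5p was shared with miR-6966-5p, whose gene had 0 counts in pup 1 and 1 in pup 2. Besides the miR-15, miR-16, miR-195 and miR-497 genes, Mir6342, Mir6353 and Mir6419 had the seed of Mir322, and each had 0 counts in both libraries.

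The 3p arms are shown because they tell the Mir450 genes apart, in the same notation.
mmu-miR-322-3p: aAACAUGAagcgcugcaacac
mmu-miR-503-3p: gAGUAUUGuuuccacugccugg
mmu-miR-351-3p: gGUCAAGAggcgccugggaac
mmu-miR-542-3p: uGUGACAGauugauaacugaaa
mmu-miR-450a-1-3p: aUUGGGAAcauuuugcauaaau
mmu-miR-450a-2-3p: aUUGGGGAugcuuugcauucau
mmu-miR-450b-3p: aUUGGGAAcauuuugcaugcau

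Mir450a-1 and Mir450a-2 encode the same 5p arm, while their 3p arms share no more than 7 nt in a row. The 3p arms of Mir450a-1 and Mir450b have their first 18 nt in common, and their seed is also that of miR-6352, whose gene had 0 counts in both pups. None of the arms of Mir322, Mir503, Mir351, Mir542 or Mir450b was found whole in another hairpin or mature miRNA of the table. The hairpins of the Mir450a genes follow with the shared 5p arm in capitals, since reads of that stretch match both places.
Mir450a-2, chrX:53048299-53048367: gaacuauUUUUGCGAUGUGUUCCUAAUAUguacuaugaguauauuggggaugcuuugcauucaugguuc
Mir450a-1, chrX:53048154-53048244: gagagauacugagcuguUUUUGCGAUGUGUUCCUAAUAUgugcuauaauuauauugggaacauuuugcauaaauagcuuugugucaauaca

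In the order of the minus strand, Mir322 (ENSMUSG00000065418.1) lies first, at chrX:53054255-53054349 of GRCm38. Mir503 (ENSMUSG00000076122.1, chrX:53053984-53054054) starts 295 nt after it and Mir351 (ENSMUSG00000065503.1, chrX:53053255-53053353) 996 nt after it. A stretch of 3767 nt, which holds the lincRNA gene Gm28730, separates Mir351 from Mir542 (ENSMUSG00000076140.1, chrX:53049403-53049487). Mir450a-2 (ENSMUSG00000076399.1), Mir450a-1 (ENSMUSG00000065486.1) and Mir450b (ENSMUSG00000076050.1, chrX:53047997-53048078) end the cluster, 54 and 75 nt apart. No annotated gene other than the miRNA gene itself overlapped a member on either strand, so all 7 are intergenic in M21. The nearest gene in front of Mir322 is the noncoding C430049B03Rik, 697 nt away on the same strand.

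The summed share of the 7 members in the own-strand counts was 1.56% ± 0.0258 (SD, n = 2), and Mir322 made up most of it. The sum was 70385 counts in pup 1, a share of 1.577% (exact 95% binomial interval 1.565% to 1.589%), and 53220 counts in pup 2, a share of 1.541% (1.528% to 1.554%). These intervals cover counting error only, since reads copied by PCR are not independent molecules. All counts of the 7 members lay on the strand of the gene, with 0 on the opposite strand in each library.

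Mir322 was the highest member, with 50115 counts in pup 1 and 35491 in pup 2. Its level was 11228 CPM (exact 95% Poisson interval 11130 to 11327) in pup 1 and 10273 CPM (10167 to 10381) in pup 2, a mean of 10751 ± 675 CPM. The level was higher in pup 1, and the intervals did not overlap. It ranked 20 among the 1973 genes by its mean and 1 among the 120 miRNA genes of chromosome X, of which it held 32.8% ± 2.21 of the counts. Reads that map to several places are not in these counts, so genes that share an arm with another gene can rank too low. The ranks and shares of Mir322 and of the cluster, among all genes and on chromosome X, can therefore be too high.

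Mir503, the neighbour that shares its family, was far lower, with 1968 and 1763 counts. Its level was 441 CPM (422 to 461) in pup 1 and 510 CPM (487 to 535) in pup 2, with a mean of 476 ± 49.1 CPM, and here the higher value was that of pup 2. Only 200 nt separate these 2 hairpins, yet Mir322 exceeded Mir503 25.5-fold in pup 1 and 20.1-fold in pup 2.

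Mir351, the member with the miR-125 seed, was the second highest with 14512 and 12879 counts. It stood at 3251 CPM (3199 to 3305) in pup 1 and 3728 CPM (3664 to 3793) in pup 2, a mean of 3490 ± 337 CPM. Pup 2 again had the higher value, and the intervals of the pups did not overlap. Its rank by mean was 40.

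Mir542, whose 3p arm is known to target the mRNA of survivin, an inhibitor of apoptosis, had 2983 and 2382 counts. This gave 668 CPM (645 to 693) and 690 CPM (662 to 718), a mean of 679 ± 15.0 CPM. The intervals overlapped, and its SD of 2.21% of the mean was the smallest of the 7 members.

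The Mir450 genes were the lowest. Mir450b had 672 and 586 counts, or 151 CPM (139 to 162) and 170 CPM (156 to 184), with a mean of 160 ± 13.5 CPM. Mir450a-2 had 69 and 62 counts, 15.5 CPM (12.03 to 19.56) and 17.9 CPM (13.8 to 23.0), and Mir450a-1 had 66 and 57 counts, 14.8 CPM (11.4 to 18.8) and 16.5 CPM (12.5 to 21.4). The intervals of the pups overlapped for each of these 3 genes. Reads of the 5p arm that both Mir450a genes encode can fall among reads mapping to several places, 26.0% and 25.7% of all reads, which the gene counts leave out. The levels of these 2 genes can therefore be understated, and how many of their reads were left out was not tested.

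**Figure D1:**
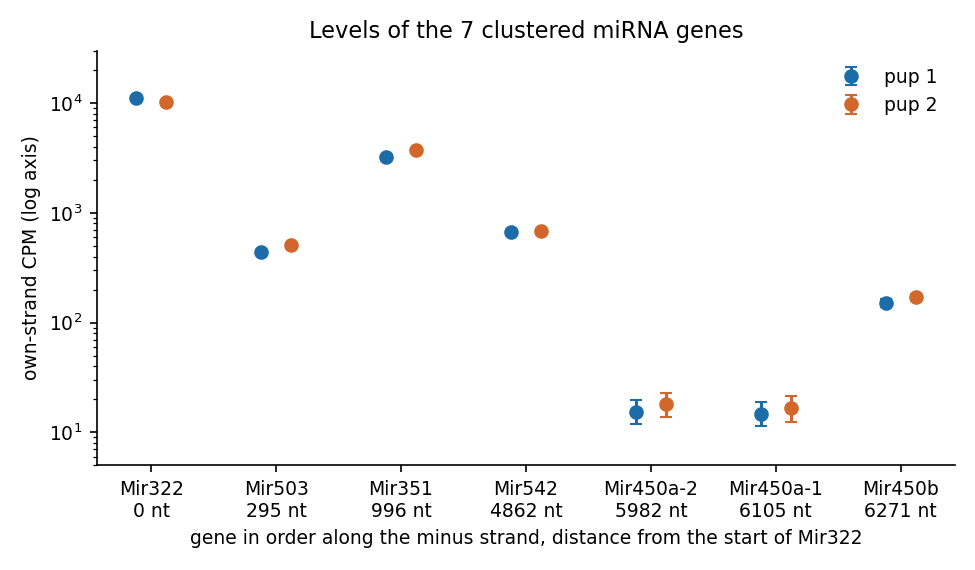
Own-strand CPM (log axis) of the 7 members in each pup, in their order along the minus strand with the distance from the start of Mir322 in nt; bars are exact 95% Poisson intervals, smaller than the points for the higher genes. Levels run from 11228 CPM for Mir322 in pup 1 to 14.8 CPM for Mir450a-1 in pup 1, and they do not fall steadily along the cluster.

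The order of the levels was Mir322, Mir351, Mir542, Mir503, Mir450b, Mir450a-2 and Mir450a-1 in both pups. It did not follow the order along the chromosome: Mir503, next to Mir322, was lower than Mir351 and Mir542 farther on, and Mir450b, the last gene, was higher than both Mir450a genes before it. In the plot of levels along the cluster, Mir450b stands about 10-fold above its neighbour Mir450a-1 (10.2-fold by mean log2 ratio). Reads of the 5p arm that the Mir450a genes share can be missing from their counts, so their distance below Mir450b can be overstated. Of the 21 pairs of members, 20 had a ratio whose exact 95% interval excluded equality in both libraries. Mir450a-2 over Mir450a-1 was the exception, at a log2 ratio of 0.06 (-0.44 to 0.57) in pup 1 and 0.12 (-0.42 to 0.67) in pup 2. For Mir542 over Mir503, the next closest neighbours in level, the log2 ratio was 0.52 ± 0.12. With 2 libraries no exact permutation test of such ratios can give a p under 0.5, so they are set against counting error and the SD only. The ratios compare reads, and whether different miRNA sequences were captured equally was not tested. A difference in capture common to both libraries would show in neither measure.

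The hairpins are 69 to 99 nt long, and a read here comes from 1 mature arm of 21 to 24 nt, so levels were not divided by hairpin length. Divided by it, a setting added after the data were seen, all 21 ratios kept their sign. Mir322 over Mir503 then became 16.9-fold in place of 22.6-fold, and Mir450a-2 over Mir450a-1 1.41-fold in place of 1.07-fold.

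Within the cluster the balance between Mir322 and the other 6 members differed between the 2 libraries beyond counting error. With 1 library per pup, a difference of the pups and one of library preparation cannot be told apart. Mir322 made up 71.2% of the cluster counts in pup 1 (exact 95% binomial interval 70.9% to 71.5%) and 66.7% in pup 2 (66.3% to 67.1%), a mean of 68.9% ± 3.19. Mir351 made up 20.6% (20.3% to 20.9%) and 24.2% (23.8% to 24.6%). Mir542 held 4.24% and 4.48%, Mir503 2.80% and 3.31%, Mir450b 0.955% and 1.10%, and each Mir450a gene under 0.12% in both pups.

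All 6 ratios of Mir322 to another member were higher in pup 1, by 0.17 to 0.34 on the log2 scale. The exact intervals of the pups did not overlap for 4 of these 6, those to Mir351, Mir542, Mir503 and Mir450b. Among the other 15 pairs this held for 1, Mir351 over Mir542, and the largest difference between the pups was 0.17. The 6 ratios of Mir322 share its counts, so they are not 6 separate differences. By the exact binomial test given below, 52.1% of the 305 detected genes differed between the pups at an adjusted p under 0.05. Mir351 over Mir503 was 7.37-fold in pup 1 and 7.31-fold in pup 2, and Mir503 over Mir450b was 2.93-fold and 3.01-fold. Without Mir322 in the sum, Mir351 made up 71.6% (71.0% to 72.2%) of the remaining counts in pup 1 and 72.6% (72.0% to 73.3%) in pup 2. Of the 6 remaining shares Mir542 alone had intervals that did not overlap, 14.7% (14.2% to 15.2%) against 13.4% (12.9% to 13.9%).

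Each pup gave 1 library, so the test of the pups compares these libraries and not pups in general. The count of each gene was set against edgeR's effective library sizes (TMM) in a two-sided exact binomial test, with Benjamini-Hochberg adjustment over all 305 detected genes. A call needed a difference of 1.5-fold or more besides an adjusted p below 0.05. The test called 0 of the 7 members, beside 9 of the 305 genes (2.95%), of which 2 (0.656%) were higher in pup 1 and 7 (2.3%) in pup 2. Beside 2.95%, 7 members are too few for 0 calls to set them apart. Without the ratio minimum, the adjusted p was under 0.05 for 3 of 7 members, beside 159 of the 305 genes (52.1%). Mir322 was the 1 member higher in pup 1, as were 27.9% of the genes, and Mir351 and Mir503 were higher in pup 2, as were 24.3%. Pup 1 over pup 2, the 7 members had a median of -0.07 on the log2 scale, beside -0.02 for all 305 genes. edgeR's common dispersion, estimated from the same 2 libraries taken as 1 group, holds the difference between the pups within its own error, so it gives no independent test of it. With it, 0 members and 16 of the 305 genes had an unadjusted p under 0.05, and 1 gene (0.328%), no member, was called.

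Mir322 had a log2 ratio of pup 1 over pup 2 of 0.23 (exact 95% interval 0.21 to 0.25; adjusted p = 1.6e-117, exact binomial test), a 1.17-fold difference. Mir351 went the other way, at -0.09 (-0.13 to -0.06; adjusted p = 2.6e-07), as did Mir503 at -0.11 (-0.20 to -0.01; adjusted p = 0.045). Mir542 stood at 0.06 (-0.02 to 0.14), Mir450b at -0.07 (-0.23 to 0.09), Mir450a-1 at -0.06 (-0.59 to 0.48) and Mir450a-2 at -0.11 (-0.63 to 0.41), none of which passed the adjusted p. Scaled by total counts, which shifts the median of all genes to -0.13, Mir542 turned to -0.045, while the other 6 members kept their sign there and with DESeq2 size factors. With DESeq2 size factors Mir503 no longer passed the adjusted p (0.35), nor did it without a count minimum (0.096), and Mir542 did (0.014 with DESeq2 size factors, a log2 ratio of 0.11).

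The size of these ratios was common among detected genes. Mir322 lay above 85.6% of the 305 ratios, and 33.4% of them were farther from 0. Of 129 genes with at least 1000 counts in each library, 112 had an adjusted p under 0.05 and 25 a larger absolute ratio than Mir322. Markers of other cell types went both ways between the pups. Of genes with an adjusted p under 0.05, pup 1 was higher for 1 smooth muscle gene of 2 (Mir143, log2 ratio 0.21), for Mir375 of endocrine cells (0.21) and for Mir126a of endothelium (0.15). Among the 4 glandular genes, Mir192 (0.20) and Mir215 (0.37) were higher in pup 1, and Mir194-1 (-0.21) and Mir194-2 (-0.37) in pup 2. Pup 2 was higher for 2 of 3 squamous genes, Mir205 (-0.16) and Mir31 (-0.10), and for 4 of 5 general epithelial genes, with Mir203 (0.08) and Mir429 (0.12) higher in pup 1. The striated muscle list, with 3 of 9 genes detected and Mir133a-1 and Mir133a-2 at 0, held 0.0184% in pup 1 and 0.0375% in pup 2. Most of that difference in counted reads was Mir206, with 435 and 914 counts (log2 ratio -1.34), the 1 gene of the list that was called. Reads that map to several places are left out, so 0 counts do not show that a miRNA was absent. The 5 mesenchymal genes held 0.528% and 0.527%. Of these, Mir214 (0.15) was higher in pup 1 and Mir199a-2 (-0.30) in pup 2 by the adjusted p. By the same rule Mir223 of myeloid cells (0.17) was higher in pup 1, and Mir122 of liver (-0.21) in pup 2. Whether arms of the marker genes are also encoded by other genes was not examined. Where they are, the levels, shares and ratios of these genes rest on the reads that remained. The part of these marker genes in the ratio of Mir322 was not tested.

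**Figure D2:**
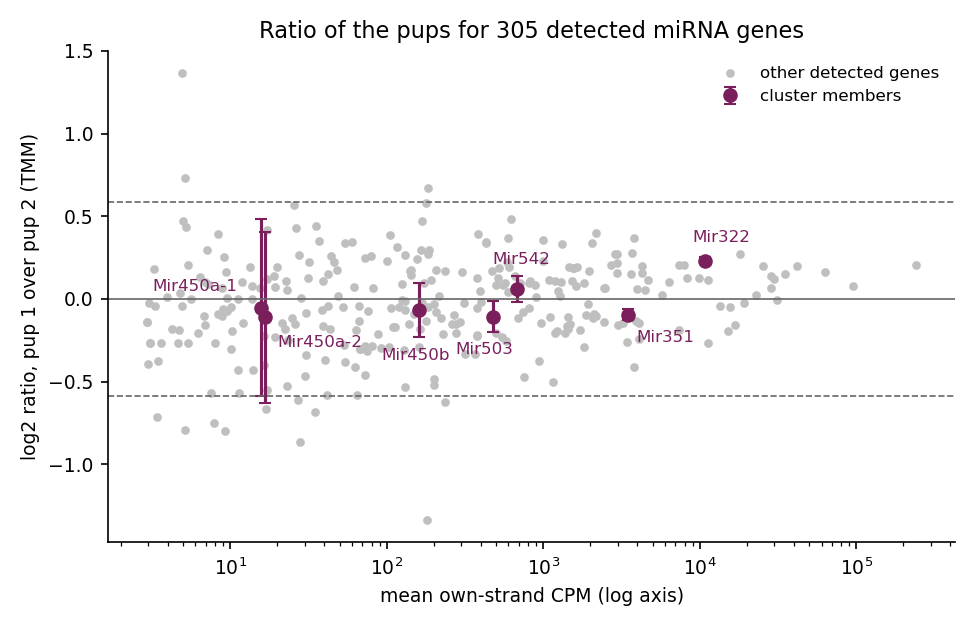
Log2 ratio of pup 1 over pup 2 after TMM scaling against mean own-strand CPM (log axis) for the 305 detected genes in grey and the 7 members in purple with exact 95% intervals; dashed lines mark a ratio of 1.5. Mir322 sits at 0.23 and Mir351 at -0.09, both between the dashed lines and amid genes of like abundance.

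Among genes with the miR-16 seed, Mir322 had the highest gene counts. The list of 9 family genes includes Mir503, which shares bases 2 to 7 of that seed and not base 8. It had 8 genes in the tables, of which 7 were detected, and together they held 1.69% ± 0.00808 of the counts. Of that sum, 68.7% (68.4% to 69.1%) came from Mir322 and Mir503 in pup 1 and 64.0% (63.6% to 64.3%) in pup 2, a mean of 66.3% ± 3.38. Mir322 alone gave 66.1% and 60.9%. The other members of the family were Mir15a (1539 and 1881 CPM in the pups), its neighbour Mir16-1 (1361 and 1621), Mir195a (1309 and 1307), Mir15b (763 and 849) and Mir16-2 (336 and 421). Mir503 lay between Mir15b and Mir16-2, and Mir195b had 0 counts. Mir503 was higher than Mir16-2 in both libraries, with 1968 against 1500 counts in pup 1 and 1763 against 1456 in pup 2.

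The 5p arm of Mir16-1 and Mir16-2 is the same, so some of their reads can be missing from the gene counts. The lead of Mir322, the share of Mir322 and Mir503, and the place of Mir503 above Mir16-2 can therefore be overstated. Without these 2 genes the share of Mir322 and Mir503 rose to 74.6%. That rise follows from fewer genes in the sum and does not gauge the missing reads. Mir497 is counted here only as reads opposite to Mir497b. With these credited to it, a setting added after the data were seen, the mean share of Mir322 and Mir503 was 63.3%. None of the 7 detected family genes was called between the pups, and 7 genes are too few to set against the 2.95% of all detected genes. By the adjusted p alone, 2 of 7 were higher in pup 1, Mir322 and Mir195a, beside 27.9% of all detected genes. Higher in pup 2 were 4 of 7, Mir503 among them, beside 24.3%. All 7 had at least 1000 counts in each library, and of the 129 genes with such counts 86.8% passed the adjusted p. The shares of all detected genes are therefore too low a standard here.

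The miR-125 seed showed a more even picture. Mir351 made up 51.2% (50.7% to 51.8%) of the counts of this seed in pup 1 and 51.0% (50.4% to 51.6%) in pup 2, a mean of 51.1% ± 0.170, and the intervals overlapped. Mir125a followed at 2240 and 2654 CPM, then Mir125b-2 at 584 and 608 CPM and Mir125b-1 at 270 and 319 CPM. The Mir125b genes encode 1 identical 5p arm, so some of their reads can be missing from the gene counts. The share of Mir351 can therefore be overstated. Without the Mir125b genes Mir351 held 58.8%, a rise that follows from fewer genes in the sum. None of the 4 genes was called between the pups, and 4 genes are too few to set against the 2.95% of all detected genes. By the adjusted p alone 3 of the 4, Mir351 among them, were higher in pup 2 and 0 in pup 1 (24.3% and 27.9% of all detected genes). All 4 had at least 1000 counts in each library, and of the 129 genes with such counts 86.8% passed the adjusted p. Together the 4 genes held 0.634% (0.627% to 0.642%) of the counts in pup 1 and 0.731% (0.722% to 0.740%) in pup 2.

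**Figure D3:**
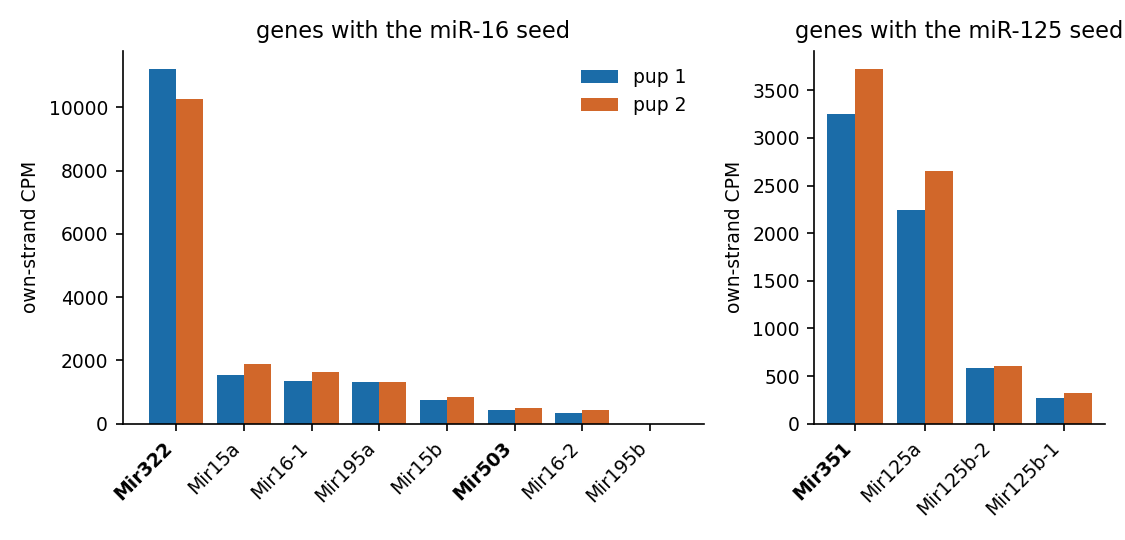
Own-strand CPM in each pup for the analysed genes with the miR-16 seed (left; Mir503 differs from it at base 8) and the miR-125 seed (right), with cluster members in bold and a separate linear axis in each panel. Mir322 stands at 11228 and 10273 CPM, with the next gene, Mir15a, at 1539 and 1881 CPM, while Mir351 at 3251 and 3728 CPM is followed closely by Mir125a at 2240 and 2654 CPM.

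By level and pup difference together, the detected genes outside the cluster nearest to Mir322 were Mir22, Mirlet7d and Mir30e, measured as the distance in log2(CPM + 1) over the 2 libraries (0.12, 0.18 and 0.36). For Mir351 they were Mir20a, Mir93 and Mir214 (0.13, 0.15 and 0.19), and for Mir542 Mir298, Mir615 and Mir107 (0.09, 0.11 and 0.13). Mir194-1, Mir433 and Mir223 were nearest to Mir503, and Mir101a, Mir494 and Mir328 to Mir450b. The same genes, Mir128-2, Mir212 and Mir325, were nearest to both Mir450a genes. With 2 libraries such a distance reflects level above all.

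Set beside other genomic clusters, the group had a high sum, and a wide spread that rested on the Mir450a genes. Grouping all named miRNA genes on 1 strand with gaps of at most 10 kb gave 39 clusters with at least 2 detected genes. The cluster ranked 8 by its summed level of 15587 ± 258 CPM, between Mir200c with Mir141 (18117 ± 2572 CPM), an epithelial pair, and the cluster of Mir17 and Mir19b-1 (13410 ± 1703 CPM), which promotes proliferation. Its highest gene exceeded its lowest 688-fold (a log2 ratio of 9.43 ± 0.20). The median was 12.1-fold over the 39 clusters and 78.7-fold over the 12 with at least 3 detected genes. That ranked 3, after the cluster of Mir17 (1404-fold) and that of Mir411 to Mir758 in the imprinted Dlk1-Dio3 region (959-fold), the latter named after its values were seen. The lowest member, Mir450a-1, shares its 5p arm with Mir450a-2. Up to Mir450b, the lowest member with no arm found in another gene, the spread was 67.2-fold, which is below the median of the 12 clusters, whose own lowest genes were kept.

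**Figure D4:**
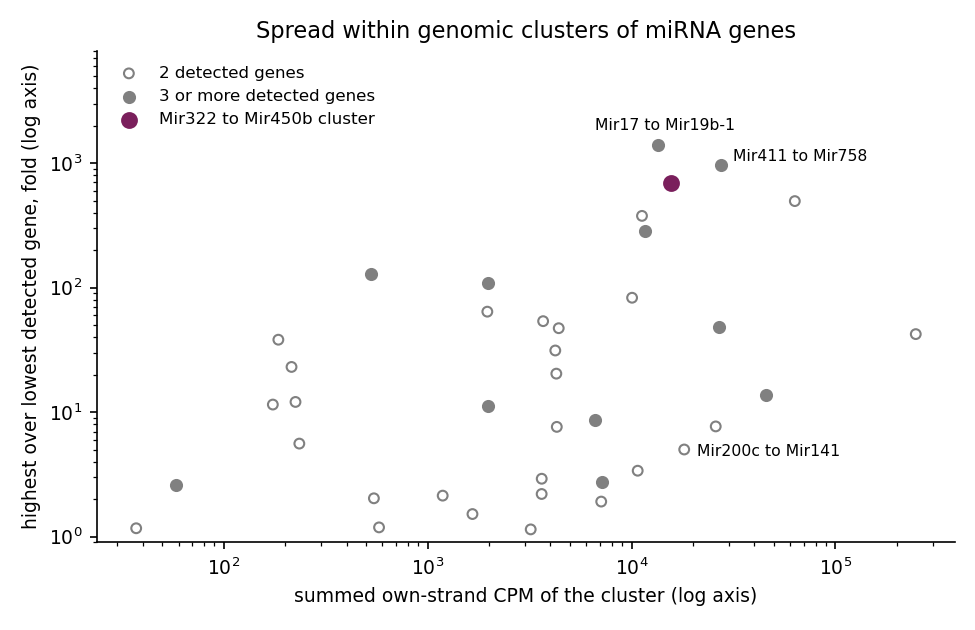
Highest over lowest detected gene (fold, log axis) against summed own-strand CPM (log axis) for 39 genomic clusters of miRNA genes; open circles have 2 detected genes, filled grey circles 3 or more, and the purple circle is the cluster of Mir322. It lies at 688-fold and 15587 CPM, near the cluster of Mir17 at 1404-fold and 13410 CPM.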

How the data were processed

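Small RNA reads of 2 newborn stomachs were counted per miRNA gene. The authors deposited raw counts without normalization, and per the deposited descriptions of these files they were made on mm10 with GENCODE M4. Which aligner and counter made them is not given in the sources used here. Rows that name no gene (36.5% and 36.3% of reads) stayed out of totals. The strand column with the larger total held 97.7% and 97.8% of gene counts. Symbols and positions came from GENCODE M21 (GRCm38), matching 1894 of 1973 identifiers, and RNA sequences from RefSeq. The Mir351 hairpin was not used here.

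Levels are CPM with exact Poisson intervals. Pups were compared by the exact binomial test with TMM from edgeR 4.0.16 (R 4.3.3), checked on simulated counts. The simulation held counting noise only, so it does not show how the test behaves with further spread between pups. DESeq2 1.42.0 gave alternative size factors. Python 3.11.15, scipy 1.17.1 and pandas 2.3.3 were used. Alternatives covered strand, denominator, scaling, dispersion, count minimum, gap and leaving out a library. Named genes are the members, seed relatives, marker and X-linked lists, the 3 nearest genes in level, and neighbouring clusters by sum. The members and lists were chosen with earlier results of these data known.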

Additional observations from a re-analysis of the deposited data

How the results depend on the processing

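The summed level of the cluster, 15587 CPM, became 15244 CPM when reads of either strand were counted and 9690 CPM with all reads in the table as the total. Calls between the pups numbered 9 over all genes, 16 with scaling by total counts, 1 with edgeR's common dispersion and 159 by adjusted p without a ratio minimum, and no member reached a ratio of 1.5 under any of these settings. Mir542 turned from 0.06 to -0.045 with total counts. Per nucleotide of hairpin, a setting added after seeing the data, the log2 ratios of Mir322 over Mir503, Mir351 over Mir503 and Mir450a-2 over Mir450a-1 were 4.08, 2.40 and 0.49. Without genes whose mature miRNA lies in another hairpin, the miR-16 and miR-125 seed shares were 74.6% and 58.8%. Fewer genes in the sum raise these shares by construction. The gap and count minimums tried remove no member, so the spread of the cluster was the same by construction, and its rank moved between 1 and 4. No paired analysis was possible because the libraries form 1 group. With 57 to 69 counts, the Mir450a genes could not be told apart.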

Other observations

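Chromosome X as a whole gave a further view of the cluster. Of its 120 miRNA genes 35 were detected (29.2%), the 7 members among them, beside 270 of 1774 on other chromosomes (15.2%). The latter include the cluster of Mir467d to Mir669e, with 8 of 107 genes detected, so the percentages compare unlike sets. The cluster of Mir322 held 47.6% ± 1.00 (SD, n = 2) of the counts of all X-linked genes, which leave out reads that map to several places. After Mir322, the next gene on that chromosome was Mir98, a let-7 family gene, at 4685 and 4641 CPM in the pups. A second X-linked cluster, chrX:52741693-52742567 on GRCm38, contains Mir106a, Mir20b, Mir92-2 and Mir363, relatives of the miR-17 cluster. It summed to 58.3 ± 12.5 CPM, against 15587 ± 258 CPM for the cluster of Mir322. Several of these genes have near-identical copies elsewhere, so their counts can be too low. Mir221 and Mir222, a pair known for targeting the cell cycle inhibitor p27, stood at 366 ± 77.2 and 179 ± 20.6 CPM. None of the 10 detected genes of the X-linked list was called between the pups, and 10 are too few to set against the 2.95% of all detected genes.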
